A study of Arabidopsis thaliana with 6 samples.

Results

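The UBA2, UBP1 and RBP45/RBP47 genes of Arabidopsis thaliana encode RNA-binding proteins that recognise uridine-rich stretches of RNA through RNA recognition motifs (RRMs). The group described here is the 10 rows named UBA2A, UBA2B, UBA2C, UBP1A, UBP1B, UBP1C, RBP45A, RBP45B, RBP45C and RBP47B, chosen by name among the 22759 named rows of the deposited tables. The genes were brought together with their hrlp-2 against WT values in view, so those values are given as a description and are not offered as tests. All 10 had a row and passed the filter on low values (at least 0.5 CPM in at least 3 libraries).

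UBP1 proteins bind oligouridylate in pre-mRNA and mRNA. In plants they have been tied to splicing, to transcript stability and to stress granules, the cytoplasmic bodies in which untranslated mRNA gathers under stress. UBA2 proteins were found as partners of UBP1, lie in the nucleus, and are known from Arabidopsis for roles in abscisic acid and wounding responses, leaf senescence and flowering. RBP45 and RBP47 proteins bind poly(A)+ RNA, and RBP47B is widely used as a stress granule marker.

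RNA was sequenced from the aerial parts of seedlings aged 9 days, grown at 23 ± 2 °C in long days (16 h light, 8 h dark). One group was the accession Columbia (Col, labelled WT) and the other the mutant hrlp-2, which the labels call an HRLP knockout. HRLP is an hnRNP R-like protein with RRMs. Each group had 3 libraries that the series description calls biological replicates, and the number of seedlings behind each library is not given.

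The values are reads per gene scaled to a common total in each library (CPM). From the steps between weak rows, 1 CPM stood for 20.00 to 25.16 reads, depending on the library. The row of the HRLP locus, AT2G44710, was at 53.2% of the WT mean in hrlp-2 (31.15 ± 1.65 against 16.56 ± 0.601 CPM, SD, n = 3 each), with 30.03 to 33.04 CPM in the WT libraries and 15.88 to 17.03 CPM in the hrlp-2 libraries. The mutant libraries therefore still held reads of the row, and a total per gene does not show which part of the transcript they came from. The leaf genes LHCB4.1 and RCA averaged 4190 and 7898 CPM in WT, and LHCB4.1 was higher in hrlp-2 at 4533 CPM. Each library listed the root endodermis genes CASP2 and CASP4 at 0. Of the other root markers, COBL9 stayed at or under 0.09 CPM, SHR measured 8.39 CPM in WT, against 6.88 CPM in hrlp-2, and PYK10 (row BGLU23) was higher in hrlp-2 (231.6 ± 0.774 against 266.9 ± 7.80 CPM). The 3 seed and pollen markers with a row stayed at or under 0.40 CPM. In bulk RNA, fewer cells of a type and less RNA per cell cannot be told apart. The part of cell composition in the values below was not tested.

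Across all rows, limma on log2(CPM + 0.5) called 20.4% of the 18643 tested rows at a Benjamini-Hochberg adjusted p under 0.05, with 11.3% higher and 9.10% lower in hrlp-2. The split moved with the scaling. Of the calls, 55.5% were higher with trimmed-mean-of-M factors, 45.4% with upper-quartile factors and 44.6% with the deposited CPM not rescaled. Among the 4964 rows at the level of the 10 genes, 35.7% were called, 22.3% higher and 13.4% lower. Against these shares, 3 of the 10 genes were called lower, 1 was called higher and 6 were not called. Since this contrast was in view when the genes were chosen, nothing is read from that count.

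The 3 UBA2 genes were all lower in hrlp-2, by nearly the same proportion. Of the 3 UBP1 genes, UBP1C was higher, and the libraries of the other two overlapped between the groups. None of the 4 RBP45 and RBP47 genes of the group passed the threshold. The changes were at most 1.18-fold (UBA2A), and all 10 lay between the 5th and 95th percentiles of all tested rows (-0.35 and 0.30 on the log2 scale). That band includes weak rows. The median absolute log2 fold change was 0.111 over all tested rows and 0.0868 among rows at the level of the 10 genes.

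**Figure D1:**
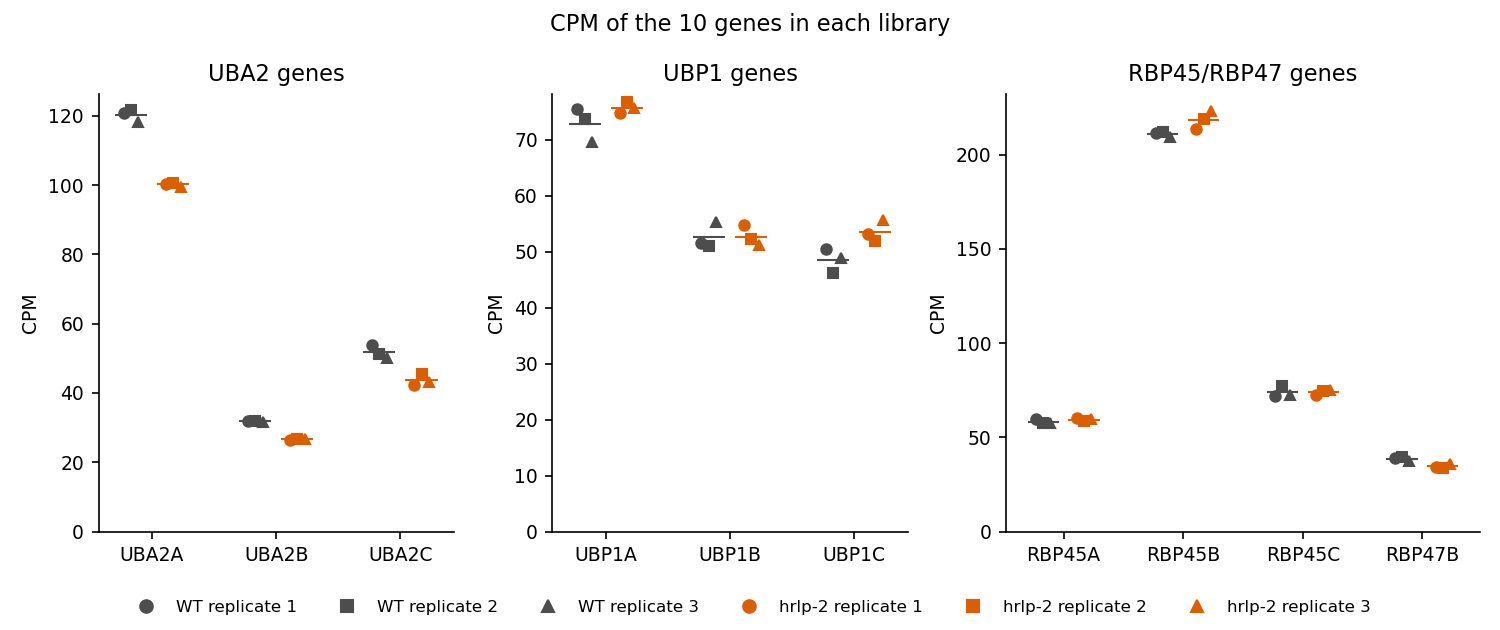
CPM (vertical axes, from 0) of the 10 genes in each of the 6 libraries, by family. Points are libraries, horizontal strokes are group means (n = 3), grey is WT and orange is hrlp-2. The WT and hrlp-2 points of UBA2A, UBA2B and UBA2C are apart, and those of UBP1A, UBP1B, RBP45A and RBP45C overlap.

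UBA2A, which took the most reads of its family, measured 120.91, 121.69 and 118.14 CPM in WT replicates 1, 2 and 3. In hrlp-2 it measured 100.42, 100.60 and 99.44 CPM. The lowest WT library thus lay above the highest hrlp-2 library. The hrlp-2 mean was 83.3% of the WT mean, and the log2 fold change was -0.24 (SE 0.0331), larger in size than that of 81.4% of all tested rows. Here and below, CPM and percentages of WT are as deposited. Log2 fold changes use CPM divided by trimmed-mean-of-M factors unless another scaling is named, so the scales differ slightly.

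UBA2B took the fewest reads of the 3, at 31.98, 31.98 and 31.55 CPM in WT, against 26.56, 26.77 and 26.79 CPM in hrlp-2. The groups did not overlap, and the hrlp-2 mean was 83.9% of the WT mean (log2 fold change -0.23, SE 0.0554). The libraries of a group lay closer together than counting error alone would place them. The coefficient of variation was 0.780% in WT, against 3.72% from the counting of about 697 to 752 reads per WT library. The SD of this gene (0.248 CPM in WT) is therefore no guide to its error, and the SE, which borrows spread from rows of like level, is the wider one. The same limit holds for other rows, such as UBA2A in hrlp-2 (0.623% against 2.13%) and RBP45B in WT (0.649% against 1.44%). Others spread more than counting error, such as UBA2C in WT (3.73% against 2.92%).

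UBA2C, which is reported to promote expression of the floral repressor FLM in Arabidopsis, measured 53.84, 51.36 and 50.04 CPM in WT, against 42.37, 45.61 and 43.09 CPM in hrlp-2. The groups again did not overlap, although the libraries of each spread more widely than for the other two. The hrlp-2 mean was 84.4% of the WT mean (log2 fold change -0.22, SE 0.0476). The row of FLM, listed as MAF1 and not a member of the group, fell from 41.23 ± 0.865 to 35.52 ± 1.62 CPM (limma adjusted p = 0.00697). Without hrlp-2 replicate 3 that adjusted p was 0.0588. Whether the lower level of FLM is tied to that of UBA2C was not tested.

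The makeup of the UBA2 family differed between the groups by no more than the spread of its libraries. UBA2A made up 59.0% ± 0.45 of the summed UBA2 CPM in WT and 58.7% ± 0.57 in hrlp-2 (SD, n = 3). UBA2B made up 15.6% ± 0.16 and 15.7% ± 0.17, and UBA2C 25.4% ± 0.57 and 25.6% ± 0.69. The ranges of the 2 groups overlapped for each of the 3 shares. The summed CPM went from 203.8 ± 3.65 in WT to 170.5 ± 2.10 in hrlp-2, with WT libraries from 199.73 to 206.73 and hrlp-2 libraries from 169.32 to 172.98.

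UBP1C, which in Arabidopsis has been tied to the handling of mRNA under low oxygen, measured 50.53, 46.30 and 48.88 CPM in WT, against 53.21, 51.95 and 55.71 CPM in hrlp-2. The lowest hrlp-2 library lay 1.42 CPM above the highest WT library. The log2 fold change was 0.16 (SE 0.0467), and it was 0.12 without WT replicate 2 and 0.14 without hrlp-2 replicate 3.

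UBP1A, which encodes an oligouridylate-binding protein of the same kind, measured 75.49, 73.75 and 69.57 CPM in WT, against 74.73, 76.78 and 75.73 CPM in hrlp-2. The groups overlapped, and WT replicate 3 was the low library of the 6. Its log2 fold change was 0.08 (SE 0.0397).

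UBP1B, tied in Arabidopsis to heat and abscisic acid responses, measured 51.63, 50.96 and 55.27 CPM in WT, against 54.76, 52.25 and 51.15 CPM in hrlp-2. The groups overlapped over most of their range (log2 fold change 0.03, SE 0.0463). The sum of the UBP1 family was 174.1 ± 3.34 CPM in WT, against 182.1 ± 0.963 CPM in hrlp-2, and its libraries did not overlap (171.01 to 177.65 against 180.98 to 182.70 CPM). UBP1C held 27.1% to 28.4% of that sum in the WT libraries and 28.7% to 30.5% in the hrlp-2 libraries.

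The families were also set against each other within each library. Summed UBA2 over summed UBP1 CPM was 1.164, 1.199 and 1.150 in the WT libraries and 0.927, 0.956 and 0.927 in the hrlp-2 libraries. Each WT library thus held more reads of UBA2 than of UBP1 genes, and each hrlp-2 library fewer. These are ratios of reads and not of molecules, because the genes differ in length. The ratio of UBA2 to the 4 RBP45/RBP47 genes was 0.534 ± 0.0066 in WT and 0.441 ± 0.0098 in hrlp-2, with no overlap. That of UBP1 to RBP45/RBP47 was 0.456 ± 0.012 and 0.471 ± 0.0083, with overlapping libraries. A ratio within a library shows unequal change and does not depend on the scaling between libraries.

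**Figure D2:**
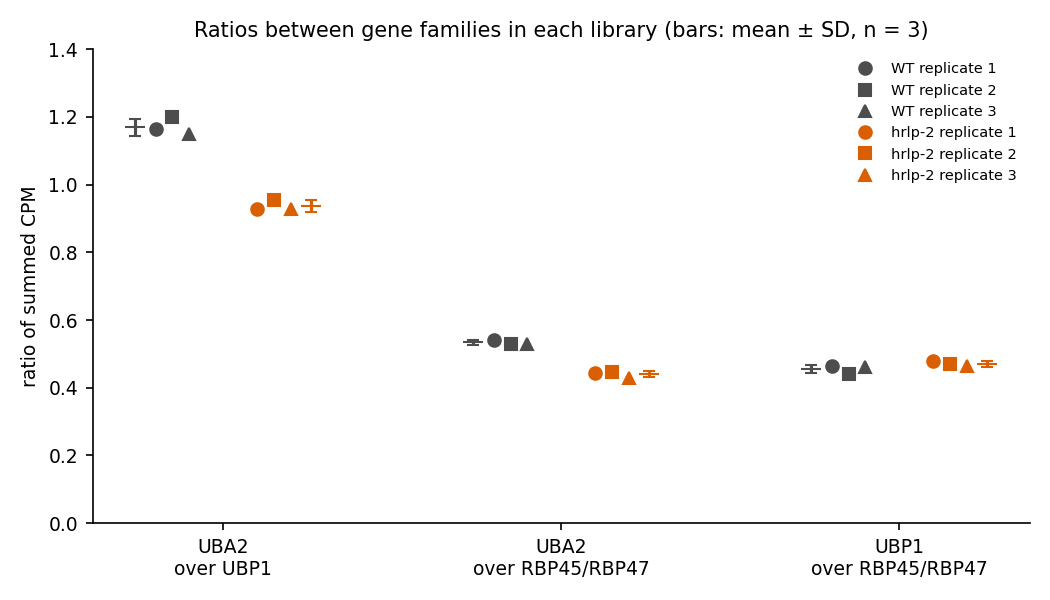
Ratio of summed CPM between gene families (vertical axis, from 0) in each library. RBP45/RBP47 stands for the 4 genes of the group only. Points are libraries, bars are mean ± SD (n = 3), grey is WT and orange is hrlp-2. The UBA2 over UBP1 ratio is 1.150 to 1.199 in WT and 0.927 to 0.956 in hrlp-2, while the groups overlap for UBP1 over RBP45/RBP47.

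RBP45B, whose protein interacts with poly(A)-binding and cap-binding proteins in Arabidopsis, took the most reads of the 10 genes. It measured 211.41, 212.21 and 209.54 CPM in WT, against 213.63, 219.09 and 222.96 CPM in hrlp-2. The groups did not overlap, with a gap of 1.42 CPM between them, and the log2 fold change was 0.07 (SE 0.0275). Over the 6 fits without 1 library the log2 fold change of RBP45B ran from 0.058 to 0.086.

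RBP45A and RBP45C, its close relatives, each overlapped between the groups. RBP45A lay between 57.53 and 59.75 CPM in WT and between 58.44 and 60.04 CPM in hrlp-2 (log2 fold change 0.05, SE 0.0417). RBP45C lay between 71.70 and 77.39 CPM in WT and between 72.66 and 74.91 CPM in hrlp-2 (0.02, SE 0.0395).

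RBP47B, the stress granule marker, had a lower mean in hrlp-2. It measured 39.04, 39.34 and 37.66 CPM in WT, against 34.19, 33.87 and 36.09 CPM in hrlp-2, and the groups did not overlap. The hrlp-2 mean was 89.8% of the WT mean (log2 fold change -0.13, SE 0.0511). With upper-quartile factors or with the deposited CPM not rescaled, its log2 fold change was -0.15. Its share of the summed RBP45/RBP47 CPM was 9.98% to 10.2% in WT and 8.78% to 9.17% in hrlp-2. The sum itself was 381.9 ± 4.63 CPM in WT, against 386.6 ± 6.62 CPM in hrlp-2, with overlapping libraries. It holds the 4 RBP45 and RBP47 genes of the group only. RBP47A, RBP47C, RBP47C' and RBP47B' are left out, so it is not a total of the family. In all, the groups did not overlap for 6 of the 10 genes, against 33.4% of all tested rows.

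**Figure D3:**
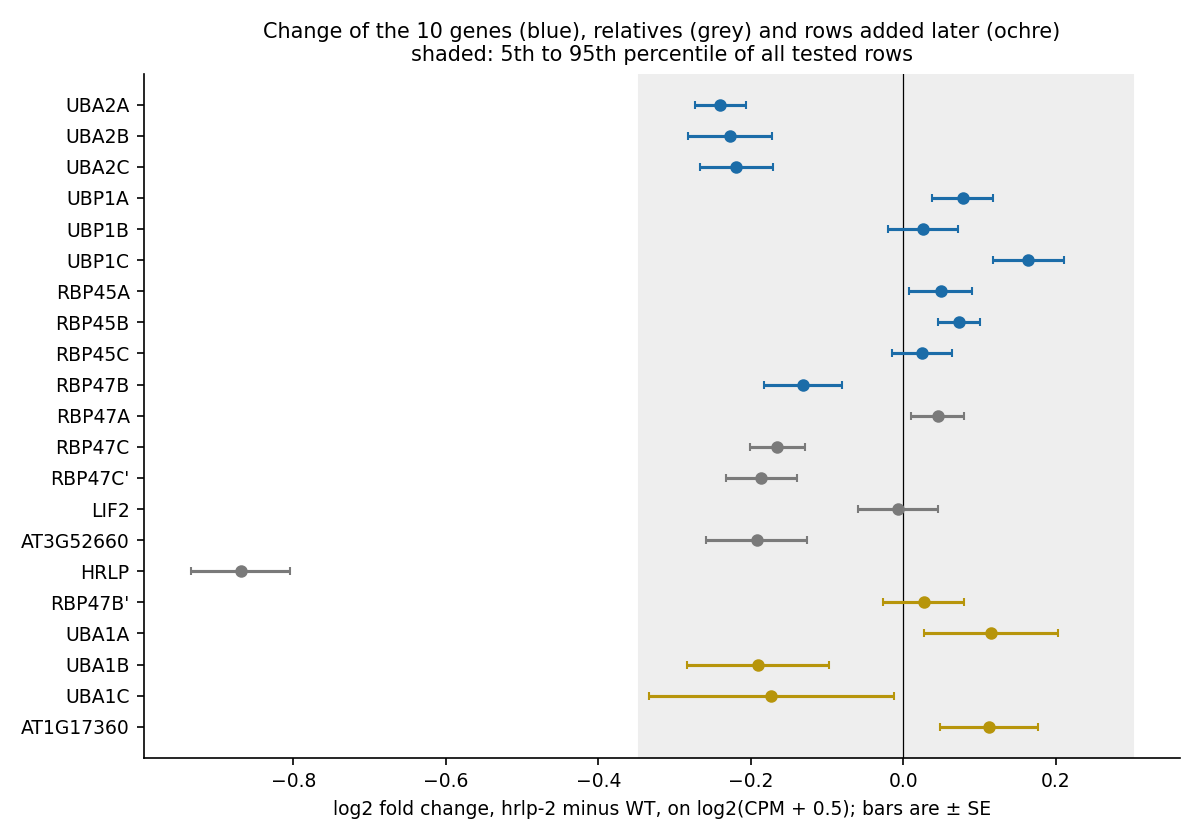
Log2 fold change, hrlp-2 minus WT, on log2(CPM + 0.5) after trimmed-mean-of-M scaling (horizontal axis). Bars are ± SE from limma (3 against 3 libraries). The 10 genes are in blue and the relatives with a row in grey. Ochre marks RBP47B' and the UBA1 genes, added after their values were seen, and AT1G17360, which overlaps UBP1B in the annotation. The UBA2 genes lie from -0.24 to -0.22 and the UBP1 genes from 0.03 to 0.16, with HRLP at -0.87 and the shaded band holding all tested rows from the 5th to the 95th percentile.

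The RefSeq annotation of TAIR10.1 pairs 7 of the 10 names with a locus, and UBA2B, UBA2C and UBP1C are named only. UBA2A (AT3G56860) lies on chromosome 3 at 21048727 to 21052320 on the minus strand. RBP47B (AT3G19130) lies on the same chromosome and strand at 6611182 to 6614107. On chromosome 1 lie UBP1A (AT1G54080, 20183545 to 20187096, minus strand), UBP1B (AT1G17370, 5951542 to 5955143, minus strand) and RBP45B (AT1G11650, 3914774 to 3918243, plus strand). RBP45C (AT4G27000) lies on chromosome 4 at 13554604 to 13557915 on the minus strand, and RBP45A (AT5G54900) on chromosome 5 at 22295369 to 22298395 on the plus strand. The 7 located genes are thus spread over 4 chromosomes, and among them only UBP1B overlaps another annotated gene. AT1G17360, on the plus strand, shares 20 bases with it and measured 27.97 ± 3.09 CPM in WT, against 29.69 ± 0.611 CPM in hrlp-2 (limma adjusted p = 0.240, and 0.0308 to 0.695 over the 6 fits without 1 library, passing without WT replicate 1). Whether reads were assigned by strand is not given in the sources used here.

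Coding sequences were compared among the located genes. UBP1A and UBP1B were identical at 77.3% of aligned bases and RBP45A and RBP45C at 80.9%. RBP45B matched RBP45A at 68.6%, and UBA2A matched the other 6 at 56.1% to 60.0%. The longest stretch without a mismatch was 35 bases for RBP45A and RBP45C and 19 bases for UBP1A and UBP1B.

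The bases just upstream of the annotated starts are shown for 4 genes. They are UBA2A, the located gene whose family was lower, UBP1A and RBP45A, whose groups overlapped, and RBP47B. The sequences come from RefSeq TAIR10.1 and run 5′ to 3′ along the gene's strand up to the base before the start. The windows are at most 250 bases and end at the nearest other gene. Capitals mark the site II forms TGGGCC and TGGGCT, elements common before plant genes of the translation machinery, and also AAACCCTA (telo-box) and CCAAT, on either strand.
UBA2A (chr3:21052321-21052433, minus): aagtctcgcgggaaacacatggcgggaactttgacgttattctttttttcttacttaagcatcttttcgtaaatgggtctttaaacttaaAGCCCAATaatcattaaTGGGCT
UBP1A (chr1:20187097-20187346, minus): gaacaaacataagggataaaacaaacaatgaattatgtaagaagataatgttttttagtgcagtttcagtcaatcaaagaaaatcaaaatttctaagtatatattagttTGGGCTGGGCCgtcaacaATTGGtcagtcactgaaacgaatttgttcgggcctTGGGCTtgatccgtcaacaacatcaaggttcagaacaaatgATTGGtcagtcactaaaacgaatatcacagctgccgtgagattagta
RBP45A (chr5:22295145-22295368, plus): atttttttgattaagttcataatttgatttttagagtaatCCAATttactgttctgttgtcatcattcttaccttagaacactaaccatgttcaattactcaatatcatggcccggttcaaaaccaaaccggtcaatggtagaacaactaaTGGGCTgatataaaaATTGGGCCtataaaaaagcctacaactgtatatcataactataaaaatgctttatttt
RBP47B (chr3:6614108-6614357, minus): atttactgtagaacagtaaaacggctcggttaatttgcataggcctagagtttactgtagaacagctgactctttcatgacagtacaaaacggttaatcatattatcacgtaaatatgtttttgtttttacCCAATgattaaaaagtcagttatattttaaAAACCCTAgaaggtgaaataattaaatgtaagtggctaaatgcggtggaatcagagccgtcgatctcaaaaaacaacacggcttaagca

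UBA2A held TGGGCT at 2 places within the last 23 bases before its start, one of which, on the opposite strand, overlaps a CCAAT. Over the full window of 250 bases, 5 of the 7 located genes held a site II form (UBA2A, UBP1A, UBP1B, RBP45A and RBP45C), as did 19.2% of the 27443 protein-coding genes scanned the same way. RBP45B and RBP47B held neither form. In UBP1A, 1 TGGGCT and the TGGGCC share a base. CCAAT was in 6 of the 7 windows and in 46.0% of all windows, and the telo-box was in 2 of the 7 (RBP45C and RBP47B) and in 4.49% of all. The G-box CACGTG was in none of the 7 and in 6.49% of all. These full windows, like those of all genes scanned, were not cut at other annotated genes. Only the last 11 bases before UBP1B and the last 58 before RBP45C are free of other genes. The site II form and the CCAATs of UBP1B lie further upstream than that, as do the telo-box and the CCAAT of RBP45C. The forms were found both in the gene that was lower and in genes whose groups overlapped.

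Levels of different genes were compared per length, for the 7 located genes. Per kb of coding sequence, RBP45B was highest in WT at 173 ± 1.1 CPM per kb (SD, n = 3), followed by UBA2A at 83.7 ± 1.3. RBP45C (59.2 ± 2.5) and UBP1A (56.4 ± 2.4) came next and did not differ beyond their spread. RBP45A (50.1 ± 1.1), UBP1B (41.8 ± 1.8) and RBP47B (29.6 ± 0.69) followed, each apart from its neighbours. The order was the same in hrlp-2, where UBA2A stood at 69.7 ± 0.43 CPM per kb. The SDs of RBP45B in WT and of UBA2A in hrlp-2 lay under counting error, so they are no guide to the error of these levels.

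The place of UBA2A in that order rests on which length is used. Its 11 annotated coding transcripts run from 2386 to 3430 bases, for a coding sequence of 1437 bases. Per kb of the median transcript length, UBA2A was at 41.1 ± 0.64 CPM per kb in WT, and its libraries overlapped those of RBP45C (41.5 ± 1.7), UBP1A (40.0 ± 1.7) and RBP45A (39.5 ± 0.85). In hrlp-2 it was at 34.2 ± 0.21, under all libraries of RBP45C, UBP1A and RBP45A. RBP45B stayed highest and RBP47B lowest on both scales.

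**Figure D4:**
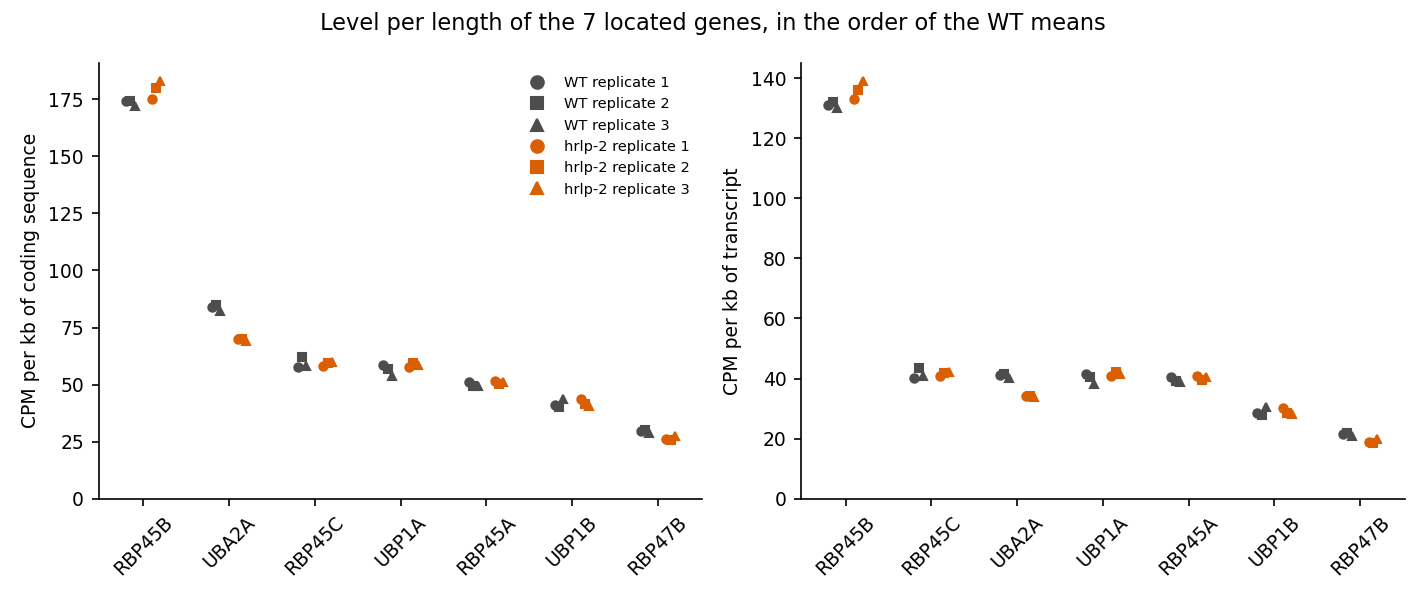
CPM per kb of coding sequence (left) and per kb of the median annotated transcript (right) for the 7 located genes, in the order of the WT means, with 1 point per library (grey WT, orange hrlp-2). RBP45B is first and RBP47B last on both scales, and UBA2A goes from the second place on the left to the third on the right.

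Relatives that the group does not include gave a view of the families beyond it. Of the 7 listed relatives, 6 had a row, and 4 of these fell (HRLP among them) while 0 rose, against 9.10% of all tested rows lower. HRLP is the gene mutated in hrlp-2, so its own fall cannot be set against that share. RBP45D had no row under its locus and was not analysed here. RBP47C and RBP47C', of the RBP47 family, both fell. RBP47C measured 100.76, 100.72 and 106.73 CPM in WT, against 89.78, 89.41 and 91.16 CPM in hrlp-2 (limma log2 fold change -0.16, SE 0.0361, adjusted p = 9.8e-04). RBP47C' measured 53.12, 56.28 and 50.70 CPM in WT, against 46.93, 46.65 and 44.66 CPM in hrlp-2 (-0.19, SE 0.0469, adjusted p = 0.00399). For both rows every hrlp-2 library lay under every WT library.

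RBP47C and RBP47C' lie near each other on the plus strand of chromosome 1 (17424473 to 17427475 and 17432433 to 17435124). Their coding sequences matched at 94.7% of aligned bases, with a stretch of 116 bases without a mismatch, so how reads were divided between them is uncertain. Summed, the 2 rows went from 156.1 ± 1.94 to 136.2 ± 0.460 CPM, or 87.2% of WT. RBP47A (row ATRBP47A) measured 98.13 ± 1.44 CPM in WT, against 99.70 ± 1.46 CPM in hrlp-2 (adjusted p = 0.397, limma). The difference between RBP47A and these RBP47 genes was not itself tested.

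Among the hnRNP R- and Q-like relatives, LIF2, a partner of the chromatin protein LHP1, lay between 34.28 and 35.85 CPM in WT and between 33.37 and 35.59 CPM in hrlp-2 (limma adjusted p = 0.947). AT3G52660, annotated as an RNA-binding RRM family protein, fell from 25.71 ± 2.42 to 22.02 ± 0.487 CPM (limma adjusted p = 0.0366), and its call ended in 3 of the 6 fits without 1 library (as high as 0.259, when WT replicate 2 was dropped). HRLP itself had an adjusted p of 4.9e-12 (limma). RBP47B' and the UBA1 genes, whose proteins also associate with UBP1, were added after their values were seen and none passed. RBP47B' measured 36.53 ± 0.317 and 36.70 ± 2.24 CPM. UBA1A measured 12.66 ± 1.07 and 13.53 ± 0.913 CPM, UBA1B 11.19 to 13.35 and 10.29 to 11.69 CPM over the libraries, and UBA1C 3.35 ± 0.672 and 2.83 ± 0.0945 CPM.

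Other RNA-binding genes of hnRNP type were called about as often as all tested rows (20.0% against 20.4%). Of 20 tested, 3 fell (15.0%, against 9.10% of all rows), 1 rose (against 11.3% of all rows) and 16 did not pass, with a median log2 fold change of -0.05 against 0.00 over all tested rows. RBG8, a glycine-rich RNA-binding protein gene, fell from 369.9 ± 14.2 to 310.1 ± 9.11 CPM (limma log2 fold change -0.23, adjusted p = 1.5e-07). RBG2, of the same class, fell from 119.7 ± 3.52 to 104.3 ± 1.41 CPM (limma adjusted p = 2.8e-04), and RZ1C, a zinc finger-containing member, from 40.12 ± 1.21 to 35.29 ± 1.31 CPM (adjusted p = 0.0237). RZ1A rose from 20.60 ± 4.72 to 25.30 ± 3.02 CPM with overlapping groups (limma adjusted p = 0.0129). The call of RZ1C ended in 4 of the 6 fits without 1 library (as high as 0.0999, when hrlp-2 replicate 1 was dropped), and that of RZ1A without WT replicate 1 (0.171) or hrlp-2 replicate 3 (0.131).

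Genes that act at the mRNA tail and in mRNA decay were counted next. Of the poly(A)-binding protein genes, 5 of 8 passed the filter and 1 of these was called (20.0%, against 20.4% of all tested rows). It was PAB2, which rose from 392.6 ± 5.35 to 415.9 ± 4.49 CPM (limma log2 fold change 0.11, adjusted p = 9.9e-04). PAB4 measured 253.1 ± 5.17 and 241.6 ± 4.62 CPM and PAB8 167.6 ± 4.61 and 166.6 ± 4.26 CPM, and neither passed. Of 20 tested genes of mRNA decay and stress granules (among them DCP1, DCP2, XRN4, UPF1 and TSN2), limma called 0, against 20.4% of all tested rows, and 0 were called by limma-voom on estimated reads. At an unadjusted p under 0.05 stood 1 of them (RH8, a DEAD-box RNA helicase gene), against 31.2% of all tested rows. Their median log2 fold change was 0.00.

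A wider set was taken from the annotation, the loci whose RefSeq product name holds the term RRM. Of 156 such loci, 115 had a row outside the 10 genes, and 106 were tested. Of these, 21 (19.8%) fell and 2 (1.89%) rose, against 9.10% and 11.3% of all tested rows. Among rows at the level of the 10 genes the shares were 13.4% and 22.3%. That range of levels was set by the 10 genes and is not matched to the RRM set. SR34b (mean 11.49 CPM over the 6 libraries) lay below it and ARP1 (744.2 CPM) above it. Of the 106, 70 had a negative log2 fold change, against 48.9% of all tested rows. The median was -0.07. HRLP and AT3G52660 are among the 21, and over the 100 genes in no other list used here 19 fell and 2 rose. With upper-quartile factors 27 fell and 1 rose, where 10.9% of all tested rows were lower and 9.04% higher.

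The RRM genes that fell most after HRLP (-0.87) were SR34b, a serine/arginine-rich splicing factor gene, and AT1G60200. SR34b went from 14.24 ± 0.668 to 8.73 ± 0.789 CPM (limma log2 fold change -0.66, adjusted p = 2.4e-06), and AT1G60200 from 88.38 ± 1.70 to 60.91 ± 1.27 CPM (-0.51, adjusted p = 6.2e-12). SR34, another splicing factor gene of that class, lay between 63.32 and 67.94 CPM in WT and between 51.50 and 57.38 CPM in hrlp-2 (limma log2 fold change -0.22, adjusted p = 4.2e-04), a size like that of the UBA2 genes. The 2 that rose were AT3G13224 (16.55 to 19.59 CPM, limma adjusted p = 0.00848) and AT1G67950 (27.38 to 30.51 CPM, adjusted p = 0.0329), whose groups overlapped.

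**Figure D5:**
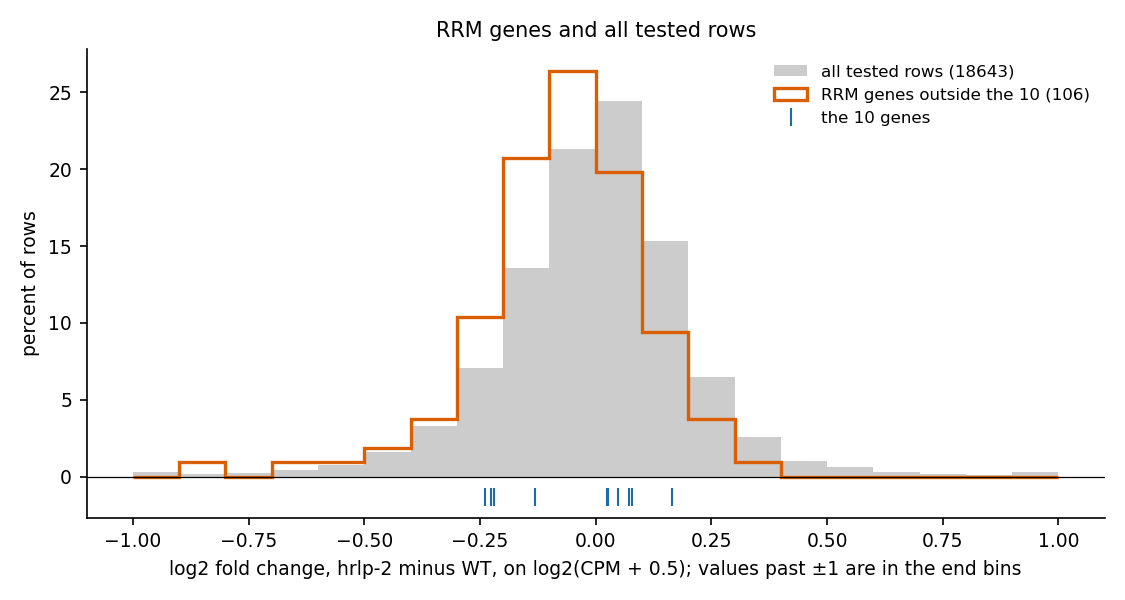
Percent of rows (vertical axis) by log2 fold change, hrlp-2 minus WT (horizontal axis, bins of 0.1), for all 18643 tested rows in grey and the 106 tested RRM genes outside the group in orange, with the 10 genes as blue ticks. The RRM outline is shifted to the left of the grey bars, with a median of -0.07 against 0.00.

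The rows whose values over the 6 libraries were most like the mean log2 level of the UBA2 genes were, by Pearson correlation, AT4G31250 (0.9981), NUCL1 (0.9971), LAF3 (0.9966), AT2G26790 (0.9955) and AT1G65370 (0.9953). All 6 libraries enter this measure, so the difference between the groups is part of it, and 437 of 18633 rows had a correlation over 0.95. NUCL1 encodes nucleolin, an RRM protein of the nucleolus, and measured 470.12, 467.96 and 451.55 CPM in WT, against 400.57, 407.66 and 400.77 CPM in hrlp-2. AT4G31250 is annotated as a leucine-rich repeat protein kinase and AT2G26790 as a pentatricopeptide repeat protein. For the UBP1 mean the nearest rows were FAD6 (0.9980), AT4G24380 (0.9961), LHCB5 (0.9949), SAR1 (0.9945) and PSAG (0.9939), of which FAD6, LHCB5 and PSAG encode chloroplast proteins. LHCB5, an antenna protein of photosystem II, averaged 5738 CPM in WT, against 6011 CPM in hrlp-2.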

How the data were processed

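The authors deposited 1 table per library with values in CPM, reads per gene scaled to a common total. The unit was taken from the values, since columns summed to between 1000000.5 and 1000007.8 and 88.0% to 89.5% of values under 2 CPM lay within 0.0051 CPM of whole multiples of 1 step per library. Per the submitters' processing notes, STAR 2.7.3a and TAIR10 were used, in roles not stated. No counter, annotation or strand setting is given in the sources used here. Libraries were prepared with a directional kit, per the labels' protocols. Each table had 22759 named rows and 1 row with neither name nor value, which was left out. Of the rows, 18019 were matched to a RefSeq TAIR10.1 locus.

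The filter kept the 18643 rows that reached 0.5 CPM in 3 or more libraries. CPM were divided by unweighted trimmed-mean-of-M factors (30% of M and 5% of A values trimmed per side, 0.9888 to 1.0131), and log2(CPM + 0.5) was tested with limma 3.58.1 in R 4.3.3 (intensity trend, two-sided, Benjamini-Hochberg over all kept rows, threshold 0.05). Fold changes on this scale understate those of weak genes. The step was also used to estimate reads, which cover counting error only. An exact permutation test on one gene has a smallest two-sided p of 0.1 at this group size. Functions were tested on simulated data. Coding sequences were aligned globally with Biopython 1.88. The p-values measure the spread between these libraries, and the labels do not say how the replicates were grown apart.

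The genes, lists and tests were chosen with earlier results of these data known. Named were all 10 genes, HRLP, the relatives with a row, up to 4 called members of each other list, FLM, overlapping genes and the 5 rows most like the UBA2 and UBP1 means. RBP47B', the UBA1 genes and the genes named in the RRM set, among the decay genes and beside PAB2 were chosen after their values were seen. One listed leaf marker matched through a synonym to a row naming another gene and was dropped. Alternatives were 3 scalings, 2 pseudocounts, 2 filters, limma-voom, the replicate number as a block, and leaving out each library.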

Additional observations from a re-analysis of the deposited data

How the results depend on the processing

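The values of the 10 genes are given as a description, since they were chosen with this contrast in view. Over the 6 fits without 1 library the log2 fold changes of the UBA2 genes ran from -0.253 to -0.190. The family medians ran from -0.245 to -0.223 (UBA2), from 0.064 to 0.103 (UBP1) and from 0.029 to 0.043 (RBP45/RBP47) without 1 library. Genes of the group called higher numbered 0 to 2 in these fits, with 0 without WT replicate 2 or without hrlp-2 replicate 3. Those called lower numbered 3 in each. Over all rows 1634 to 1927 were called higher and 1324 to 1474 lower. RBP47B was called lower with upper-quartile factors (-0.153) and with the deposited CPM not rescaled (-0.154). Of the other hnRNP-like genes, 0 were called higher without the filter on low values, and 0 to 2 without 1 library. The poly(A)-binding list held 1 lower call without the filter and 0 with it. RRM genes called higher numbered 1 with upper-quartile factors, the deposited CPM or no filter, and 1 to 3 without 1 library, while those called lower numbered 15 to 19 in the latter fits and 14 without the filter. The cause of these shifts was not tested.

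The replicate numbers are shared by both groups, but the labels do not say that a number marks shared material, and same-numbered libraries did not deviate together (correlations of deviations from the group means -0.044, -0.014 and -0.012). With the replicate block, 3 genes of the group were called lower and 1 higher, as without it, and 2100 rows were called higher and 1697 lower. Depth set the counting error of single libraries at 1.44% for RBP45B and at 3.72% for UBA2B in WT.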
